A study of Mus musculus with 2 samples.

Results

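Histones are the proteins around which DNA is wound in the nucleus, and their genes were followed here in mouse haematopoietic stem cells (HSCs), which renew every type of blood cell. The set comprised 77 protein-coding mouse genes, set against 37820 genes in the deposited gene table and 28009 genes in the transcript table. Of these, 67 were replication-dependent histone genes, taken by their symbols (Hist1h, Hist2h, Hist3h and Hist4h in the older naming), and 10 were genes of histone variants or of the linker histone H1.0, taken by name: H2afz, H2afv, H2afx, H2afj, H2afy, H2afy2, H3f3a, H3f3b, Cenpa and H1f0. Adult HSCs had been sorted out of bone marrow; the 2 samples labelled so were from B6129SF1 mice at an age of 6 to 8 weeks. Fetal HSCs came from the liver at embryonic day 14.5, as far as the labels' protocol says, and the sources used here give neither the strain of the fetal mice, nor the sort markers, nor how many animals stand behind a library. RNA with a poly(A) tail was selected before sequencing in all libraries.

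The values are the authors' FPKM (fragments mapped to a feature, scaled by its length and by the library's total), in 2 tables that each have a column headed BM (adult bone marrow) and a column headed FL (fetal liver). Neither column is split by replicate, so the spread between libraries is unknown and no test was possible; "higher" and "lower" compare the columns as deposited. Depth is not known either, and in bulk RNA fewer cells of a type and less RNA per cell cannot be told apart.

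DNA is packed around an octamer of the core histones H2A, H2B, H3 and H4, and the linker histone H1 binds where DNA enters and leaves it. Replication-dependent genes supply the bulk of these proteins in S phase. They lie in clusters, lack introns as a rule, and yield mRNAs that end in a conserved stem-loop bound by the protein SLBP in place of a poly(A) tail. Variant histones are as a rule not tied to S phase and come from polyadenylated mRNAs, though H2afx also gives mRNA that ends in the stem-loop. Each has its own place in chromatin: H2A.Z at promoters, H3.3 at active genes and telomeres, macroH2A on silent chromatin, CENP-A at centromeres. Selection for poly(A) therefore captures most variant mRNAs well, but H2afx and replication-dependent mRNAs only in part. The FPKM of replication-dependent genes do not measure their total mRNA.

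The stem-loop was looked for in the annotated transcripts of all members, because it decides how such an mRNA ends. It was found in 48 of 72 protein-coding transcripts of replication-dependent genes (66.7%), in 1 of 23 of variant genes, and in 109 of 58702 other protein-coding transcripts (0.186%). The sites below belong to the genes that the results turn on. Capitals mark the 16 bases of the stem-loop, read 5′ to 3′ on the transcript and written as DNA, with 5 bases on each side or fewer where the transcript ends.
Hist1h2ao: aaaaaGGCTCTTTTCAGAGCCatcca
Hist1h2ap: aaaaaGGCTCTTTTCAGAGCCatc
Hist2h2aa2: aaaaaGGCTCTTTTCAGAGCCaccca
Hist1h3b: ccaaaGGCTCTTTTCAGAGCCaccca
Hist1h4b: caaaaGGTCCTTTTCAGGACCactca
Hist1h4i: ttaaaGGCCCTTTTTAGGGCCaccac
Hist1h1c: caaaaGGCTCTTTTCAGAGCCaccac
H2afx: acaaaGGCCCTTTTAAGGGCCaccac

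Across 46 replication-dependent members with a site there were 8 forms of these 16 bases. The form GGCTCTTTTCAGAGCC was carried by 26 genes. The form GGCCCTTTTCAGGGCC was carried by 7 genes, all of them H4 genes, and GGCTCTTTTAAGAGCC by 6. H4 genes also held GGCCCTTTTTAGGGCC (Hist1h4i and Hist2h4) and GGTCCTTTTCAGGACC (Hist1h4b and Hist1h4j). The other 21 replication-dependent members had no site in their annotated transcripts, whose longest forms had a median length of 405 bases. Several of these transcripts were short, such as Hist1h4k-201 with 312 bases, Hist1h2bl-201 with 381 and Hist1h3h-201 with 411. A site beyond an annotated end would have been missed, so these genes cannot be said to lack the stem-loop.

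What follows the stem-loop in the annotation differed between members. In 23 replication-dependent genes the transcript that carries it ended within 100 bases after it, with 31 bases left in Hist1h2ao, 3 in Hist1h2ap and 28 in Hist1h4b. In 23 others it ran on for more than 100 bases, with 330 bases left in Hist1h4i and 840 in Hist1h1c. A polyadenylation signal (AATAAA or ATTAAA on the transcript strand, within the last 40 bases) stood in such a transcript in 1 of the first 23 genes (Hist1h4h) and in 12 of the second 23. Counted per transcript, it stood in 48.7% of 58702 other protein-coding transcripts and in 26.4% of 72 transcripts of replication-dependent genes. The second class was thus near the share of other transcripts, and the first class was below it. H2afx, whose product H2A.X marks DNA breaks when phosphorylated, is known to give both kinds of mRNA end, and its annotated transcript ran on for 822 bases past the stem-loop. The class that runs on had a summed level in the gene table of 113 FPKM in the BM column and 105 FPKM in the FL column, against 50.8 and 47.6 FPKM for the class that ends near the stem-loop. Without Hist1h4i and Hist1h1c its sums were 44.1 FPKM in BM and 46.2 FPKM in FL, so that order rests on these 2 genes. The order of these 2 classes was the opposite in the transcript table. There the class that runs on had 32.97 FPKM (BM) and 41.8 FPKM (FL), against 105 FPKM (BM) and 238 FPKM (FL). Most of the last sum lay in Hist1h2ao and Hist1h2ap. Without those 2 genes the class that ends near the stem-loop still had higher sums than the class that runs on, 59.9 FPKM in BM and 74.2 FPKM in FL. Hist1h2ao and Hist1h2ap are not in the gene table, and Hist1h4i and Hist1h1c are not in the transcript table. Members with no site in the annotation summed to 80.1 FPKM in BM and 102 FPKM in FL in the transcript table. In the gene table they summed to 64.1 FPKM in BM and 38.8 FPKM in FL.

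The promoters were searched for CCAAT and TATAAA on both strands in a window from 250 bases before to 50 bases after each gene start (RefSeq, GRCm38.p6). CCAAT, the site of factor NF-Y, was in 53 of 62 replication-dependent promoters (85.5%), 7 of 9 variant promoters (77.8%) and 37.8% of 26954 other promoters. TATAAA, the core TATA box, was in 35 replication-dependent promoters (56.5%), in 1 variant promoter (11.1%, H3f3b) and in 14.1% of the others. These matches describe letters in the window only. Those of 3 members are printed here, since Hist1h2ao belongs to the replication-dependent pair with the highest FL values of the transcript table, H2afz was the most abundant member and H3f3b the variant that was higher in BM in the transcript table. Capitals mark CCAAT or its complement ATTGG, and TATAAA.
Hist1h2ao, chr13:21810117-21810416, plus strand: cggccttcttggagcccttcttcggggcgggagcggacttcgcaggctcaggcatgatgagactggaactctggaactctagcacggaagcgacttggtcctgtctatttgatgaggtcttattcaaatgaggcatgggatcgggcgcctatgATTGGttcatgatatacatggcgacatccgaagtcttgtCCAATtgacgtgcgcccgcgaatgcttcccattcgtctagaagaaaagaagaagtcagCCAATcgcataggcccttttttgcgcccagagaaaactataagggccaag
H2afz, chr3:137864237-137864536, plus strand: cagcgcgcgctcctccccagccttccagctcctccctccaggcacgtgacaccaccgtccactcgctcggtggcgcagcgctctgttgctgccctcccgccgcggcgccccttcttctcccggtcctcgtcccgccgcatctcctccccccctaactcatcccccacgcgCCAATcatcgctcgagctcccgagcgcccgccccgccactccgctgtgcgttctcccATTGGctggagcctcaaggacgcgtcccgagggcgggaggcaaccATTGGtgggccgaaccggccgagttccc
H3f3b, chr11:116024455-116024754, minus strand: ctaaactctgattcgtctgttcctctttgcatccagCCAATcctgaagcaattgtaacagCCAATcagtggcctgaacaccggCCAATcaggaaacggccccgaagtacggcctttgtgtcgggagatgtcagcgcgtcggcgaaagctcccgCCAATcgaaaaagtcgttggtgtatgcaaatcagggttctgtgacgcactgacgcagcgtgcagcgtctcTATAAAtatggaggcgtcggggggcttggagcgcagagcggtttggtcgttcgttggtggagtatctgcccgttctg

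The headers of the tables do not match each other for these genes. Among the 6 variants measured in both tables, BM values of the gene table tracked FL values of the transcript table: the median absolute deviation in log2 from a constant ratio was 0.03. That deviation was 0.78 between the columns headed BM and 0.51 between those headed FL. For 22 replication-dependent genes with no value under 1 FPKM, Pearson's r of log2 levels (taken across genes, so not over independent replicates) was 0.817 for the BM column of the gene table with the FL column of the transcript table, 0.588 for BM with BM and 0.471 for FL with FL. Of all 3125 genes for which just 1 transcript was linked, 75.5% kept to a constant ratio within 10% in the first pairing and 13.3% to 16.7% in the others. The tables are therefore described apart, and every value is given under the header it carries. Which header is right was not settled, so in one of the tables BM over FL may not be adult over fetal, and the words "higher in BM" and "lower in BM" refer to headers alone. A direction in one table is no repeat of, and no contradiction to, a direction in the other.

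Differences are given as a relative log2 ratio, log2((BM + 0.1) / (FL + 0.1)) less its median over the genes that reached 1 FPKM in both columns. The median removed was 0.01 in the transcript table and 0.24 in the gene table. A gene was called expressed if it reached 1 FPKM in BM or in FL, and an expressed gene was counted as higher or lower in BM if the relative ratio was at least 2-fold. Among all expressed genes, the transcript table had 13.3% higher and 8.82% lower in BM, of 12220, and the gene table had 12.3% higher and 23.6% lower, of 13834.

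Markers of other blood and vessel cells also differed between the columns. In the transcript table, 10 HSC markers summed to 941 FPKM in BM and 603 FPKM in FL, and 9 of 10 erythroid markers were at least 2-fold lower in BM (summed level 115 FPKM in BM and 576 FPKM in FL). All 8 macrophage markers were lower there as well (4.58 FPKM in BM and 213 FPKM in FL), as were 8 of 10 neutrophil and monocyte markers (95.9 and 539 FPKM), and Alas2 and Timd4 were at 0 in BM. Of 6 megakaryocyte markers 4 were higher in BM (760 and 129 FPKM). For the gene table, all 7 endothelial markers were lower in BM (summed level 101 FPKM in BM and 2293 FPKM in FL), as were all 6 stromal markers (11.7 and 751 FPKM), while 8 of 10 erythroid markers were higher in BM (439 and 89.4 FPKM). There 9 of 10 neutrophil and monocyte markers were higher in BM and 1 was lower (571 and 131 FPKM), and 3 of 8 macrophage markers were higher and 5 lower (224 and 580 FPKM). The HSC markers of the gene table had 6 higher and 2 lower (651 and 539 FPKM), and the megakaryocyte markers 2 higher and 3 lower (140 and 352 FPKM). Car1, Ctsg and Ly6c2 were at 0 in FL of the gene table. The part of these cells in the histone differences below was not tested.

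Variants made up most of the histone signal in these poly(A)-selected libraries. The variant genes of the transcript table held 0.533% of all FPKM in BM and 0.575% in FL, against 0.0414% and 0.0641% for the replication-dependent genes. Variants of the gene table held 0.535% in BM and 0.440% in FL, against 0.0326% in each column for the replication-dependent genes. Of the 77 members, 42 were in both tables, 21 in the gene table only, 5 in the transcript table only and 9 in neither, the last being H1f0, Hist4h4, Hist1h2bh, Hist1h2bl, Hist1h2bm, Hist1h2bn, Hist1h3h, Hist1h3i and Hist2h2bb.

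The transcript table held 6 expressed variants, of which 1 was higher in BM, beside 13.3% of all genes, 2 were lower, beside 8.82%, and 3 lay between. The gene table held 9, of which 2 were higher, beside 12.3% of all genes, 1 was lower, beside 23.6%, and 6 lay between. The variants' median was -0.63 in the transcript table and -0.08 in the gene table, where that of all expressed genes was 0.02 and -0.07; without the subtraction of the column median the gene-table value was 0.16.

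H2afz encodes H2A.Z.1, the H2A variant that flanks transcription start sites, and was the most abundant member in every column. It had 834 FPKM in BM and 1491 FPKM in FL in the transcript table (relative log2 ratio -0.84), and 1531 FPKM in BM and 789 FPKM in FL in the gene table (0.72). It thus ranked 88th of 28009 genes in BM and 68th in FL in the transcript table, and 73rd and 102nd of 37820 genes in the gene table. Its protein-coding transcripts shared the direction of the gene: H2afz-201 had 484 FPKM in BM and 798 FPKM in FL, H2afz-206 had 193 and 413 FPKM, and H2afz-207 had 128 and 234 FPKM. The retained-intron transcript H2afz-203 ran the other way, at 7.74 FPKM in BM and 2.97 FPKM in FL. Of all 75-base windows in the H2afz transcripts, 54.0% also occur in a transcript of another gene, 52.3% in Tmcc1, so reads from these genes may have been shared out in counting.

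H2afv encodes H2A.Z.2, the close relative of H2A.Z.1. It had 95.2 FPKM in BM and 91.6 FPKM in FL in the gene table (-0.19, or 0.05 without centring), where H2afz was 16.1 times as high in BM and 8.61 times as high in FL. Both of its annotated transcripts were linked in the transcript table, with a sum of 7.17 FPKM in BM and 16.04 FPKM in FL (-1.16). This sum was far below the level of the gene table, and the reason was not tested.

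H2afx was at 172 FPKM in BM and 153 FPKM in FL in the gene table (-0.07, or 0.17 without centring), and H2afz exceeded it 8.90-fold in BM and 5.15-fold in FL. H2afj encodes H2A.J, known from senescent cells, and was higher in BM, with 82.7 FPKM in BM and 28.2 FPKM in FL (1.31). Neither gene had a linked transcript in the transcript table.

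The macroH2A genes H2afy (macroH2A1) and H2afy2 (macroH2A2) code for H2A with a large added domain. H2afy was at 445 FPKM in BM and 591 FPKM in FL in the transcript table (-0.42), and at 619 FPKM in BM and 232 FPKM in FL in the gene table (1.18). H2afy2 was at 3.77 FPKM in BM and 33.04 FPKM in FL in the gene table (-3.34), the largest difference of any variant there, and under 1 FPKM in the transcript table, where BM was practically 0 and FL 0.563 FPKM. The balance of the pair therefore differed between the columns of the gene table, H2afy being 164 times as high as H2afy2 in BM and 7.01 times in FL. The FL column concerned is also the one with high endothelial and stromal markers. Most H2afy signal in the transcript table lay in H2afy-204, annotated as a processed transcript (222 FPKM in BM and 296 FPKM in FL), and in the coding H2afy-201 (181 and 263 FPKM). The coding transcript H2afy-202 ran the other way, with 21.8 FPKM in BM and 12.0 FPKM in FL.

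**Figure D1:**
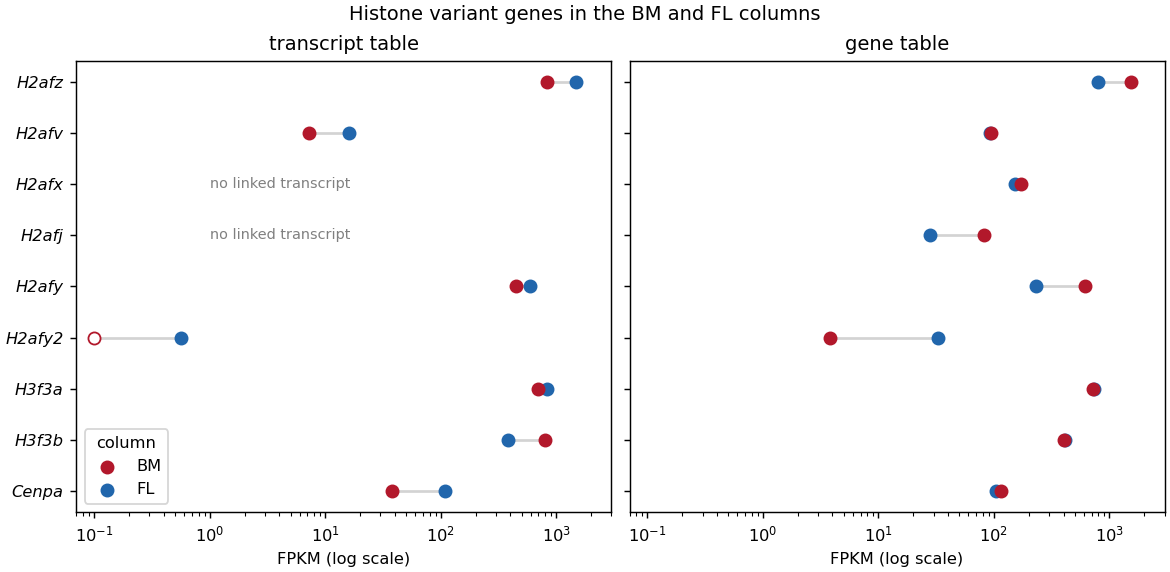
FPKM on a log axis of 9 histone variant genes in the BM (red) and FL (blue) columns of the transcript table (left) and the gene table (right). An open circle marks a value below 0.1 FPKM drawn at 0.1, and points are the authors' column values with no replicates. H3f3b lies to the right in BM and Cenpa to the left in the transcript table, with near-equal points for both in the gene table, where H2afy2 is at 3.77 FPKM in BM against 33.04 FPKM in FL.

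H3f3a and H3f3b encode the same protein, H3.3, the H3 variant deposited independently of DNA replication by the chaperones HIRA and DAXX-ATRX. H3f3a had 695 FPKM in BM and 828 FPKM in FL in the transcript table (-0.26), and 721 FPKM in BM and 742 FPKM in FL in the gene table (-0.28, or -0.04 without centring). H3f3b had 790 FPKM in BM and 384 FPKM in FL in the transcript table (1.03), and 405 FPKM in BM and 413 FPKM in FL in the gene table (-0.27). H3f3b was 1.14 times as high as H3f3a in BM of the transcript table. In FL there the ratio was 0.464, and in the gene table it was 0.561 in BM and 0.556 in FL. Of the 4 columns this BM column alone had more H3f3b than H3f3a, and over coding transcripts alone it did not: there H3f3b was 0.522 times H3f3a in BM and 0.357 times in FL.

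The difference in H3f3b lay mainly in transcripts with no annotated coding sequence. The coding H3f3b-201 had 362 FPKM in BM and 294 FPKM in FL, a ratio of 1.23. H3f3b-203, a processed transcript, had 257 FPKM in BM and 10.02 FPKM in FL, a ratio of 25.7, and H3f3b-204, of the same type, had 171 and 79.7 FPKM, a ratio of 2.15. Such transcripts made up 54.2% of the gene in BM and 23.3% in FL. Over the coding transcripts alone the relative log2 ratio was 0.29, which is under 2-fold. The transcripts of H3f3a kept nearly the same proportions, with 425 FPKM in BM and 529 FPKM in FL for H3f3a-207, and 245 and 275 FPKM for H3f3a-201. These splits are estimates, because short reads from exons that several transcripts have in common must be divided among them.

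**Figure D2:**
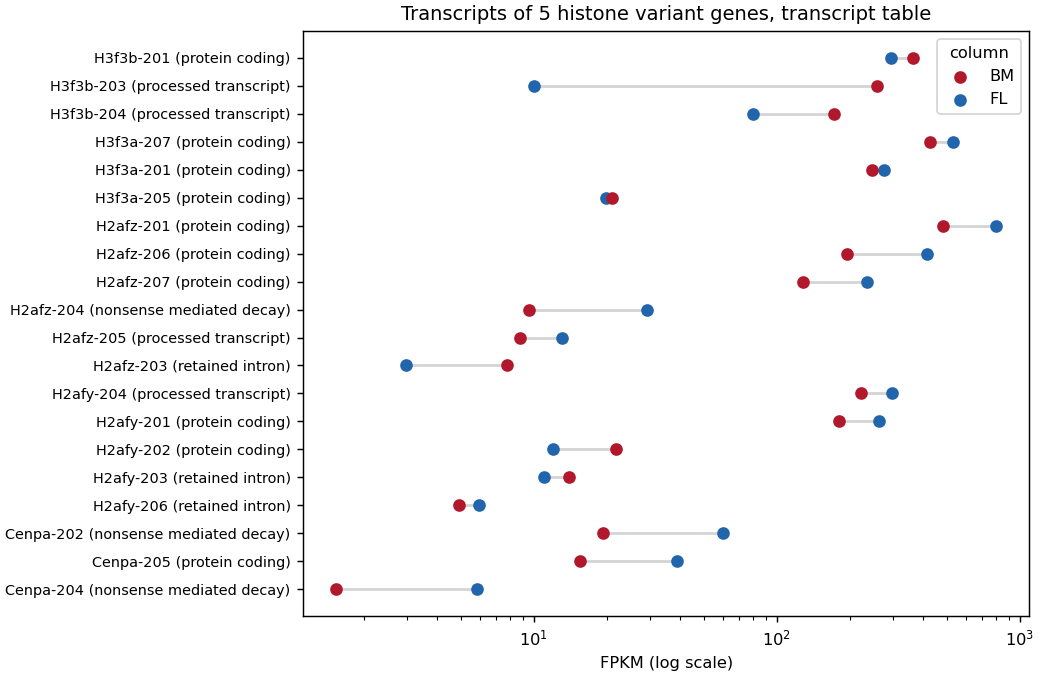
FPKM on a log axis of 20 transcripts of 5 histone variant genes at 5 FPKM or more in either column of the transcript table, with BM in red, FL in blue and the annotated transcript type in brackets. H3f3b-203 shows the widest gap, 257 FPKM in BM against 10.02 FPKM in FL, while H3f3b-201 has 362 FPKM in BM against 294 FPKM in FL.

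Cenpa encodes CENP-A, the H3 variant that marks centromeres and is loaded after mitosis by HJURP. It had 37.8 FPKM in BM and 109 FPKM in FL in the transcript table (-1.53), the lowest ratio among the expressed variants there, and 116 FPKM in BM and 104 FPKM in FL in the gene table (-0.08, or 0.16 without centring). Both of its main transcripts shared the direction in the transcript table. Cenpa-205, the coding one, had 15.4 FPKM in BM and 38.7 FPKM in FL, and Cenpa-202, annotated for nonsense-mediated decay, had 19.2 FPKM in BM and 60.2 FPKM in FL. Its loader Hjurp did not share it there, with 36.8 FPKM in BM and 37.2 FPKM in FL. In the gene table Hjurp had 74.6 FPKM in BM and 88.3 FPKM in FL (-0.48). The transcript sums of Hjurp were thus below its level in the gene table, and the reason was not tested. No 75-base window of Cenpa occurs in another gene.

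The make-up of the H2A and H3 mRNA pools follows from these levels. H2afz took 59.9% of the summed H2A FPKM in BM and 63.7% in FL in the transcript table, the macroH2A genes took 31.9% and 25.3%, and the replication-dependent H2A genes 7.71% and 10.4%. In the gene table, which also lists H2afx and H2afj, H2afz took 60.3% in BM and 58.1% in FL, and the replication-dependent genes 1.31% and 2.24%. Among H3 genes in the transcript table, H3f3b took 51.4% in BM and 28.7% in FL, H3f3a 45.2% and 61.9%, Cenpa 2.46% and 8.15%, and the replication-dependent H3 genes 0.955% and 1.26%. The order of H3f3b above H3f3a in BM rests on processed transcripts, since the coding transcripts summed to 362 FPKM for H3f3b and 693 FPKM for H3f3a in BM, and to 295 and 825 FPKM in FL. The H3 shares of the gene table were nearly alike, with H3f3a at 57.6% in BM and 58.4% in FL and H3f3b at 32.3% and 32.5%. These are shares of captured polyadenylated mRNA, not of histone protein.

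**Figure D3:**
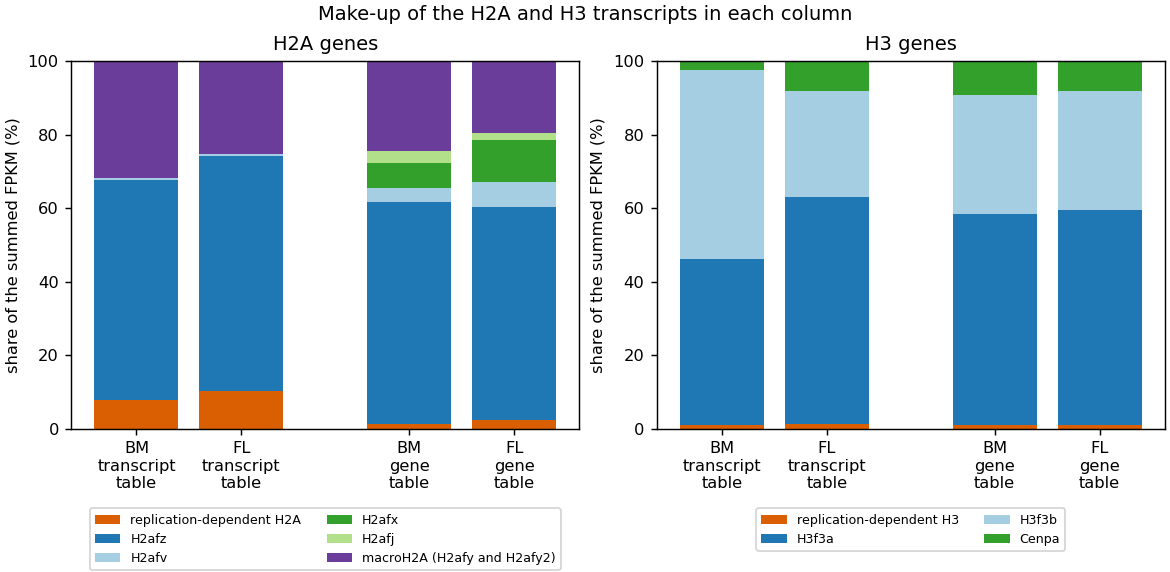
Share in percent of the summed FPKM of H2A genes (left) and H3 genes (right) held by each variant and by the replication-dependent genes together, in the BM and FL columns of the transcript table and of the gene table. The H3f3b share is 51.4% in BM and 28.7% in FL in the transcript table, and 32.3% in BM and 32.5% in FL in the gene table.

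Replication-dependent genes were detected at low levels. The 67 genes lie in the Hist1 cluster on chromosome 13 (54 genes), the Hist2 cluster on chromosome 3 (10), the Hist3 cluster on chromosome 11 (2) and, with Hist4h4, on chromosome 6 (1). A row was present for 40 of them in the transcript table, with 35 expressed, and for 54 in the gene table, with 41 expressed. Among the 35 of the transcript table, 1 was higher in BM, beside 13.3% of all genes, 8 were lower, beside 8.82%, and 26 lay between. Their median ratio was -0.44, and 27 of 35 were below 0. The median of all expressed genes was 0.02 in this table, and their share below 0 was not counted. Among the 41 of the gene table, 5 were higher, beside 12.3% of all genes, 11 were lower, beside 23.6%, and 25 lay between, with a median of -0.10 (0.14 without centring). Many of these genes were at a few FPKM, and the counts moved with the settings. With a pseudocount of 1 FPKM in place of 0.1 they were 1 higher and 3 lower in the gene table, and 4 lower in the transcript table. With only members at 5 FPKM or more they were 2 higher and 2 lower in the gene table, and 4 lower in the transcript table.

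The summed level of the class was 218 FPKM in BM and 382 FPKM in FL in the transcript table, and 228 FPKM in BM and 192 FPKM in FL in the gene table. Much of the difference in the transcript table came from Hist1h2ao and Hist1h2ap, H2A genes on chromosome 13. Hist1h2ao had 22.7 FPKM in BM and 81.7 FPKM in FL, and Hist1h2ap had 22.7 FPKM in BM and 81.8 FPKM in FL, a relative log2 ratio of -1.85 for each. The transcripts of these genes share 93.1% and 92.6% of their 75-base windows with other genes, with each other above all, so their values are not separate measurements. Without them the sums were 173 FPKM in BM and 218 FPKM in FL.

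**Figure D4:**
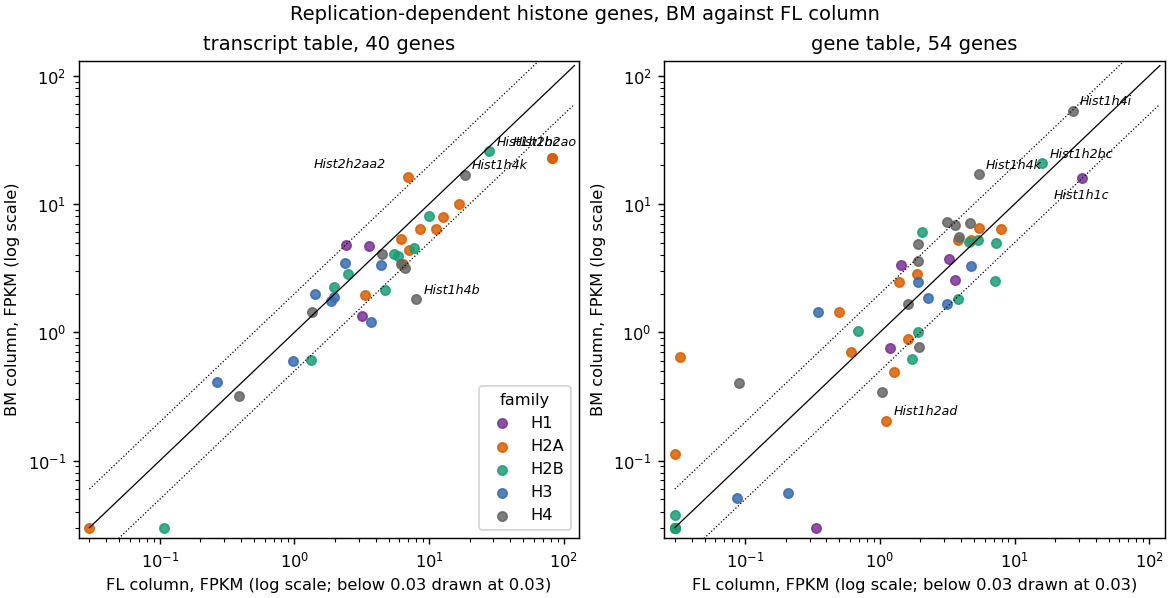
FPKM of each replication-dependent histone gene in the BM column (vertical) against the FL column (horizontal), both on log axes, in the transcript table (left, 40 genes) and the gene table (right, 54 genes), coloured by family; the solid line marks equal values and the dotted lines 2-fold differences before centring. Hist1h2ao, with 22.7 FPKM in BM and 81.7 FPKM in FL, overlaps Hist1h2ap at the far right of the transcript table, and Hist1h4i is the highest point in BM of the gene table.

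Linker histone H1 genes code for proteins that compact the chromatin fibre. Hist1h1b (H1.5) had 4.78 FPKM in BM and 2.42 FPKM in FL in the transcript table (0.95), Hist1h1e (H1.4) 4.74 and 3.56 FPKM (0.40), and Hist1h1a (H1.1) 1.34 and 3.17 FPKM (-1.19, or -0.84 with a pseudocount of 1, under 2-fold). In the gene table, Hist1h1b had 2.54 FPKM in BM and 3.61 FPKM in FL (-0.73), and Hist1h1a 3.34 and 1.44 FPKM (0.92). These BM values lie near the FL values of the transcript table, which that column tracked, so the signs are not compared between the tables. The H1 median was 0.40 over 3 expressed genes of the transcript table and -0.73 over 5 of the gene table, 4 of them below 0. The medians of all expressed genes were 0.02 and -0.07. Hist1h1c (H1.2), whose annotated transcript runs on past its stem-loop, was the highest H1 gene of the gene table, with 16.04 FPKM in BM and 31.9 FPKM in FL (-1.23). Only 6.66% of its 75-base windows occur in another gene. Hist1h1t, the testis form H1t, was at 0 in BM and 0.338 FPKM in FL, and the H1.0 gene H1f0 had no value.

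Among H2A genes, 10 of 11 expressed members lay below 0 in the transcript table, with a family median of -0.75. Their summed level was 107 FPKM in BM and 243 FPKM in FL. The median of all expressed genes was 0.02 there, and their share below 0 was not counted. H2A genes shared a median of 71.5% of their 75-base windows with other genes, so these members are not separate measurements. The member above 0 was Hist2h2aa2 of the Hist2 cluster, with 16.3 FPKM in BM and 6.97 FPKM in FL (1.21). All of its 75-base windows occur in other genes, as do those of its cluster mate Hist2h2aa1, and both are listed at 0 in the gene table, in BM and in FL. Hist1h2an had 9.94 FPKM in BM and 16.7 FPKM in FL. The H2A median of the gene table was -0.04, between Hist2h2ac at 1.44 FPKM in BM and 0.497 FPKM in FL (1.12, or 0.48 with a pseudocount of 1) and Hist1h2ad at 0.205 FPKM in BM and 1.12 FPKM in FL (-2.24). Hist1h2aa was at 0 in every column.

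The H2B gene Hist1h2bc stood out by its level and not by its ratio. It had 25.8 FPKM in BM and 27.9 FPKM in FL in the transcript table (-0.11, or 0.01 with upper-quartile scaling), and 20.7 FPKM in BM and 15.98 FPKM in FL in the gene table (0.13), the highest H2B value in each. Hist2h2be, which shares no 75-base window with another gene, had 3.92 FPKM in BM and 5.82 FPKM in FL in the transcript table (-0.56), and 6.05 FPKM in BM and 2.04 FPKM in FL in the gene table (1.28, or 0.99 with a pseudocount of 1). Hist1h2bg was lower in BM in the gene table, with 2.49 FPKM in BM and 7.09 FPKM in FL (-1.71). The H2B median was -0.41 for 9 expressed genes of the transcript table and -0.52 for 10 of the gene table. Hist3h2ba of the small Hist3 cluster was at 2.15 FPKM in BM and 4.73 FPKM in FL in the transcript table (-1.11, or -0.87 with a pseudocount of 1), and Hist3h2a, an H2A gene of that cluster, at 5.34 and 6.16 FPKM (-0.21).

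Replication-dependent H3 genes were low throughout, with a summed level of 14.7 FPKM in BM and 16.9 FPKM in FL in the transcript table. Hist1h3b was lower in BM there, with 1.21 FPKM in BM and 3.67 FPKM in FL (-1.53), and higher in BM in the gene table, with 1.43 FPKM in BM and 0.349 FPKM in FL (1.53). With a pseudocount of 1 the gene-table ratio of Hist1h3b was 0.63, under 2-fold. Hist1h3a had 3.48 FPKM in BM and 2.36 FPKM in FL in the transcript table (0.54), and was lower in BM in the gene table, with 1.65 FPKM in BM and 3.14 FPKM in FL (-1.12, or -0.86 with a pseudocount of 1). Hist2h3c2 stayed under 1 FPKM in all columns.

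The signs of the H4 medians are not compared between the tables, since gene-table BM values tracked transcript-table FL values. An H4 gene had the highest replication-dependent value in BM of the gene table. Hist1h4i had 53.2 FPKM in BM and 27.1 FPKM in FL (0.73), of an H4 sum of 109 FPKM in BM and 56.4 FPKM in FL. Hist1h4k had 17.1 FPKM in BM and 5.44 FPKM in FL in the gene table (1.40), and 16.9 FPKM in BM and 18.3 FPKM in FL in the transcript table (-0.13), with 68.1% of its windows shared. The gene table had 11 expressed H4 genes, 8 of them above 0, with a median of 0.65, beside -0.07 for all expressed genes. Below 0 lay 5 of 6 in the transcript table, with a median of -0.50, beside 0.02 for all expressed genes. Hist1h4b had the lowest ratio of the expressed members there, with 1.80 FPKM in BM and 8.05 FPKM in FL (-2.10).

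**Figure D5:**
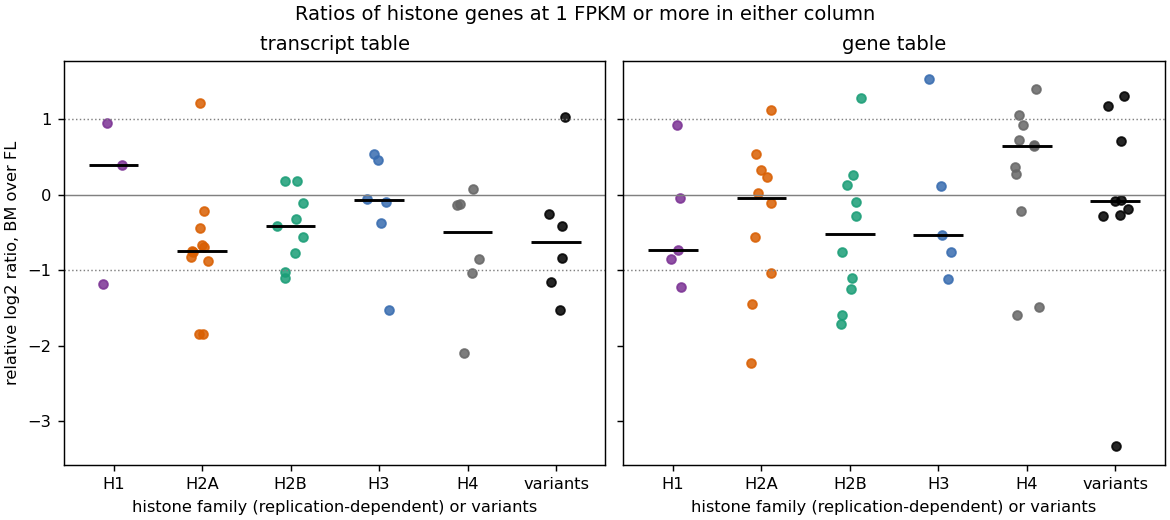
Relative log2 ratio of BM over FL for each expressed histone gene, by replication-dependent family and for the variants, in the transcript table (left) and the gene table (right); horizontal bars are medians and dotted lines mark 2-fold. The H2A and H4 medians are -0.75 and -0.50 in the transcript table and -0.04 and 0.65 in the gene table.

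Sequence sharing sets a limit on single genes. Over all 67 replication-dependent genes, a median of 42.4% of the 75-base windows occurred in a transcript of another gene, and 31 genes shared at least 50%. The H2A family had the highest median, 71.5%, and the H1 family the lowest, 0.735%. For the variants the median was 5.18%, with 4.26% for H3f3b and 25.7% for H3f3a.

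Genes that make and process histone mRNA were described next. They include Slbp, the stem-loop binding protein, Npat and Casp8ap2 of the histone locus body, and the cyclin E genes that activate NPAT. The transcript table had 29 of them expressed, 1 higher in BM, beside 13.3% of all genes, and 2 lower, beside 8.82%, with a median of -0.43. The gene table had 30, with 3 higher, beside 12.3%, none lower, beside 23.6%, and a median of 0.40. Slbp had 72.7 FPKM in BM and 97.4 FPKM in FL in the transcript table, and 103 FPKM in BM and 66.5 FPKM in FL in the gene table. Ccne1 was lower in BM in the transcript table, with 7.43 FPKM in BM and 36.9 FPKM in FL (-2.30), as was Ccna2 with 28.5 and 62.5 FPKM (-1.14). Tut7, a uridylyltransferase that acts on RNA 3′ ends, was higher there, with 8.74 FPKM in BM and 3.94 FPKM in FL (1.12). In the gene table Tut7 had 17.2 FPKM in BM and 15.7 FPKM in FL (-0.11). Its transcript sums were thus below its level in the gene table, and the reason was not tested. Higher in BM in the gene table was Casp8ap2, with 22.3 FPKM in BM and 7.84 FPKM in FL (1.26), and so was Ccne1 with 38.7 and 15.1 FPKM (1.11).

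Chaperones carry histones to DNA. Among 34 expressed in the transcript table, 1 was higher in BM, beside 13.3% of all genes, and 3 were lower, beside 8.82%, with a median of -0.35. The same number in the gene table had 1 higher, beside 12.3%, and none lower, beside 23.6%, with a median of 0.28. Lower in the transcript table were Nasp, Asf1b and Chaf1a: Nasp, which holds soluble H3 and H4, had 45.7 FPKM in BM and 111 FPKM in FL (-1.28), Asf1b, which also binds H3 and H4, 19.9 and 46.7 FPKM (-1.23), and Chaf1a, a subunit of the chromatin assembly factor complex, 27.99 and 58.0 FPKM (-1.05). Atrx, which places H3.3 at telomeres and repeats, was the higher one, with 83.8 FPKM in BM and 32.5 FPKM in FL (1.36). Npm1 was the most abundant, with 920 FPKM in BM and 1417 FPKM in FL. Srcap, the catalytic subunit of a complex that loads H2A.Z, was higher in the gene table, with 38.5 FPKM in BM and 10.8 FPKM in FL (1.59).

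Genes of DNA replication and proliferation, S phase and mitotic genes together, were counted beside them. Among 24 in the transcript table, none was higher in BM, beside 13.3% of all genes, and 7 were lower, beside 8.82%, with a median of -0.67. The gene table had 5 higher, beside 12.3%, and none lower, beside 23.6%, with a median of 0.54. Rrm2, a subunit of ribonucleotide reductase, had 26.5 FPKM in BM and 78.2 FPKM in FL (-1.56) and the mitotic cyclin gene Ccnb1 22.2 and 74.1 FPKM (-1.74) in the transcript table. The proliferation marker Mki67 was nearly equal there, with 32.5 FPKM in BM and 32.1 FPKM in FL. The part of cell cycle phase in the levels of the replication-dependent genes was not tested.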

How the data were processed

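Polyadenylated RNA of sorted HSCs was cut to fragments near 300 nt before NEBNext Ultra library preparation and paired-end sequencing on a HiSeq2500, per the labels' protocols, which name reads of 100 nt and of 75 nt. The authors deposited 2 tables of FPKM, a gene table and a transcript table, with the same column headers, BM and FL. TopHat, Cufflinks, featureCounts of Subread, edgeR and the build mm9 are named, without versions or roles, in the submitters' processing notes. Each column was read as the authors' value for its group, with no SD or n. Depth is unknown, since FPKM does not retain it, and no interval is given. The labels do not say whether the 2 adult samples came from separate animals, and they list the molecule as genomic DNA. The BM columns were assigned to the adult group by their header alone.

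Features were joined by Ensembl identifier to the GENCODE vM21 annotation of GRCm38, which gave a gene for 76507 of 87641 transcripts and a symbol for 32819 of 37820 genes. Transcripts were summed per gene. Members are genes annotated as protein-coding. The log2 ratio used a pseudocount of 0.1 FPKM, which understates differences of low genes. Stem-loops, shared 75-base windows and polyadenylation signals were searched in GENCODE transcripts, and promoters were taken from RefSeq and matched by gene identifier for 62 replication-dependent genes and 9 variants. Calculations used Python 3.11.15, numpy 2.4.6, pandas 2.3.3, Biopython 1.88 and matplotlib 3.10.9, and the ratio code was tested on simulated data. The members and lists were chosen with earlier results of these data known. All variants were named. Replication-dependent genes given with levels were picked from those with the 6 highest values per column and the 5 largest and 5 smallest ratios per table, and from a few genes listed by name. List genes were picked from the 4 highest genes and the 4 largest ratios of each list. Not all genes under this rule are printed, Snrpb, Pcna, Mcm7 and Hist1h4d being among those left out, so the named genes are a selection. Npat, Hjurp, Ccna2 and Mki67, the H1 genes, Hist1h2aa, Hist1h3a and Hist3h2ba were named for their role where they fell outside that rule.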

Additional observations from a re-analysis of the deposited data

How the results depend on the processing

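No paired analysis was possible because the columns carry no replicate numbers, and for the same reason no replicate could be left out. Settings tried were pseudocounts of 0.01 and 1 FPKM, no centring, upper-quartile scaling, no filter and a filter at 5 FPKM, genes of any biotype, the highest linked transcript only, and 2 settings chosen after seeing the data (coding transcripts only, and leaving out Hist1h2ao with Hist1h2ap). Of 116 summary values 103 stayed within 1.5 times of the reported value (for log2 ratios, within the same factor of the ratio itself), 13 moved and none that was called changed sign; of 464 values of single genes, 457 stayed and 7 moved. The replication-dependent count higher in BM in the gene table (5) was 2 at 5 FPKM and 1 with a pseudocount of 1, and the count lower in BM (11) was 2, 3 and, without centring, 7. In the transcript table the count higher in BM (1) was 2 with the highest transcript only, with any biotype and with upper-quartile scaling. There the count lower in BM (8) was 4 at 5 FPKM, 4 with a pseudocount of 1 and 5 with upper-quartile scaling. The variant count higher in BM in the transcript table (1, H3f3b) was 0 with the highest transcript only and 0 over coding transcripts only, where H3f3b had 0.34 and 0.32. With a pseudocount of 1, ratios in the gene table shrank to -1.03 for Hist1h2ad, -0.98 for Hist1h2bf, 0.63 for Hist1h3b, -0.82 for Hist1h4m and 0.48 for Hist2h2ac, genes near 1 FPKM. A pseudocount of that size shrinks low values by construction, and a filter leaves fewer genes; the cause of the other shifts was not tested.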

Other observations

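Histone genes and pseudogenes outside the rule were also listed. H1fx, the gene of linker histone H1.10, had 72.0 FPKM in BM and 50.4 FPKM in FL in the gene table, above every replication-dependent H1 gene there. The processed pseudogene H3f3a-ps2 had 25.7 FPKM in BM and 35.2 FPKM in FL in the transcript table, and 20.5 and 16.7 FPKM in the gene table. H3f3c, annotated as a processed pseudogene, had 13.8 FPKM in BM and 17.7 FPKM in FL in the transcript table. Hist1h2al, a processed pseudogene on chromosome 13, had 11.0 FPKM in BM and 2.55 FPKM in FL in the transcript table, and 1.34 and 1.65 FPKM in the gene table. The germ-line genes H1fnt, Hils1, H2afb1, H2afb2, H2afb3, H2al2a and H2bfm stood at 0 in BM and in FL of the gene table.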
